A study of Mus musculus with 3 samples.

Results

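The heat shock proteins and DNAJ cochaperones are the main protein folding helpers of the cell, and their genes were followed here in mouse dendritic cells grown from bone marrow (BMDCs), a culture model of the cells that take up microbes and present antigens to T cells. The members were the protein-coding genes whose symbol starts with Hspa, Hspb, Hspd, Hspe, Hsph, Hsp90a or Dnaj, together with Hsf1 and Bag3 and without Hspa5. This rule used names only and found 75 of the 55487 genes in the deposited table, among them 45 DNAJ genes. All cells were wild type, and the study had 3 cultures with 1 RNA sequencing library each: untreated cells, cells exposed to P. vulgatus (Phocaeicola vulgatus, which lives in the gut) and cells exposed to YB328 (a gut bacterial strain). The sources used here do not give the mouse strain, the growth factors of the culture, the dose and length of exposure, or whether live bacteria were used. With 1 library per group no difference below has a replicate check, no test across libraries was possible, and each comparison sets 1 library against another.

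Heat shock proteins bind unfolded or partly folded proteins. HSP70 proteins take up and release such clients in a cycle driven by ATP, DNAJ proteins (also called HSP40 or J proteins) bring clients to HSP70 and start ATP hydrolysis, and exchange factors such as the HSP110 proteins and BAG3 end the cycle by releasing ADP. HSP90 proteins act on later folding steps of kinases, receptors and other signalling proteins. Heat, oxidants and unfolded proteins free the transcription factor HSF1, which binds inverted repeats of the letters GAA, called heat shock elements, in front of the inducible members. Other members are constitutive or serve the endoplasmic reticulum, the mitochondria, the ribosome or the synapse.

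The unit of level is CPM, counts brought to 1 common library total, made from the deposited estimated counts after scaling the 3 libraries to each other, or TPM, which also corrects for gene length and is used wherever 1 gene is set beside another. "Rose" and "fell", or "passed", are used only of a gene that reached 5 CPM in some library, changed by 2-fold or more once 0.5 CPM had been added to each level, and had an exact 95% interval of its ratio clear of 1. Intervals and floors cover counting error only, since reads amplified by PCR and not marked by molecular identifiers do not each stand for a molecule of RNA. Of the 75 members, 55 (73.3%) reached 5 CPM in a library. The 20 below it are accounted for at the end.

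The libraries summed to 15538132.9 estimated counts in untreated cells, 26660869.8 with P. vulgatus and 26924006.2 with YB328, so that 3 counts, the floor used for a gene at 0, stand for 0.194, 0.114 and 0.110 CPM. The untreated library held other kinds of RNA: nuclear protein-coding genes without Lars2 took 57.9% of its counts against 95.3% and 96.6%, mitochondrial protein-coding genes 12.8% against 0.748% and 0.577%, and ribosomal RNA 14.0% against 1.29% and 0.707%. Markers of other cells moved too. The summed level of 10 neutrophil markers was 13674 TPM in untreated cells, 1348 with P. vulgatus and 1275 with YB328, that of 10 cycling cell markers was 135, 17.6 and 13.1 TPM, that of 7 stromal markers was 111, 16.5 and 28.6 TPM, and that of 9 macrophage markers was 182, 653 and 1391 TPM. The 11 dendritic cell markers summed to 8871, 15303 and 15832 TPM, and all had counts in each library except Cd209a, which was at 0 with YB328. Of these 11, Irf8 and Ccr7 rose and Itgax and Cd209a fell with each bacterium, and Cd74, H2-Ab1 and H2-Aa, the highest of them by TPM in untreated cells, passed with neither. Itgax (CD11c) was 62.4 TPM in untreated cells, 7.5 with P. vulgatus and 20.8 with YB328. Of the 9 macrophage markers, Fcgr1, Cd68, Adgre1 and Ms4a7 rose and Mrc1 fell with each bacterium. Of 6 stromal markers at 5 CPM, Col3a1, Col1a2, Sparc and Col1a1 fell and Lum rose with each bacterium. Markers of T and NK cells (5 genes, at most 9.21 TPM in sum, Ncr1 at 0 in untreated cells and with YB328) and of B cells (4 genes, at most 5.60 TPM) were low. Each comparison with untreated cells below carries these differences, whose part in the results was not tested. In such bulk libraries, fewer cells of a type and less RNA per cell cannot be told apart.

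More members were higher than lower in both bacterial libraries. In the P. vulgatus library 21 of the 55 members rose and 6 fell (38.2% and 10.9%), where the same rule called 25.2% of all 10699 genes tested higher and 18.8% lower. In the YB328 library 17 rose and 4 fell (30.9% and 7.27%), beside 24.7% and 18.3% of all genes. The median log2 ratio of the members was 0.48 with P. vulgatus, against 0.15 for all genes, and 0.60 with YB328, against 0.17. These 2 comparisons share the untreated library, so their resemblance is no independent observation. The balance depends on the scaling. With the 10 most abundant genes of each library left out of it, 29 members passed as higher and 1 as lower with YB328. The shares of all genes were then 38.2% and 10.9%. With P. vulgatus 27 members passed as higher and 3 as lower, beside 37.1% and 11.6% of all genes. With YB328 and P. vulgatus, the median of all genes shifted to 0.65 and 0.60 and that of the members to 1.06 and 0.91. With only nuclear protein-coding genes without Lars2, 13 members passed as higher and 4 as lower with YB328, beside 22.0% and 19.6% of all genes. With P. vulgatus 19 were higher and 8 lower, beside 22.5% and 20.2%. By share of counts the members differed in another way: they took 0.423% of all counts in untreated cells, 0.674% with P. vulgatus and 0.620% with YB328, but 0.730%, 0.707% and 0.641% of the counts on nuclear protein-coding genes without Lars2.

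**Figure D1:**
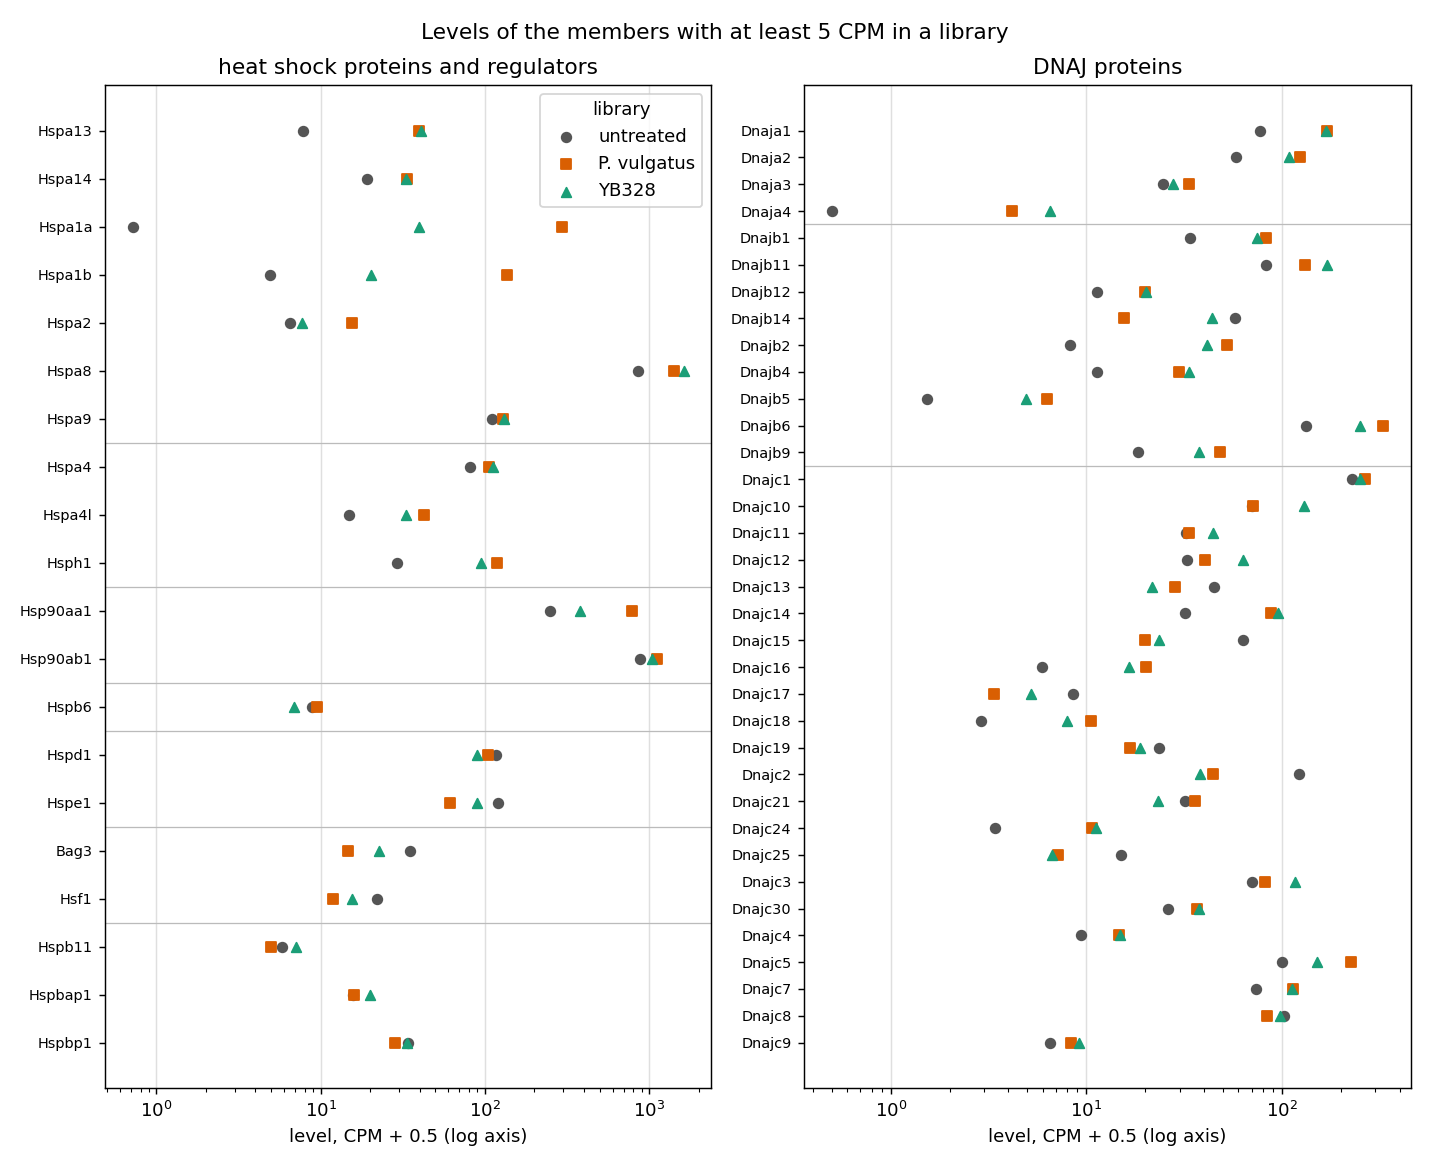
Levels of the 55 members that reached 5 CPM, in CPM plus 0.5 on a log axis, with 1 point for each library (grey circles untreated, orange squares P. vulgatus, green triangles YB328); grey lines part the classes. Hspa1a and Hspa1b spread widely, with P. vulgatus highest at 296 and 136 CPM, and Hspa8, Hsp90ab1 and Hsp90aa1 lie farthest to the right.

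Set directly against each other, the bacterial libraries held 41 of 55 members within 0.5 on the log2 scale, a share not counted for all genes. The median log2 ratio of YB328 to P. vulgatus was 0.0017 for the members and 0.0023 for all genes. With YB328, 1 member passed as higher (1.82%) and 4 as lower (7.27%), beside 3.4% and 2.89% of all genes. The 1 higher member was Dnajb14. The 4 lower ones were Hspa1a, Hspa1b, Hspa2 and Hsp90aa1, genes for HSP70 and HSP90 proteins of the cytosol. In the deposited TPM, without Hspa2 and with Dnajc10 added, the split was 2 higher and 3 lower, beside 3.69% and 2.35% of all genes.

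The inducible HSP70 genes Hspa1a and Hspa1b, kept low in resting cells and classical targets of HSF1, differed widely between the libraries. Hspa1a (ENSMUSG00000091971.3, GRCm38 chromosome 17, 34969190 to 34972156, minus strand) had 3.38 estimated counts in untreated cells, 7820.7 with P. vulgatus and 1067.36 with YB328, which is 0.218, 296 and 39.2 CPM. It was nearly silent in untreated cells, high with P. vulgatus and intermediate with YB328. Its log2 ratio to untreated cells, 8.69 with P. vulgatus, was at rank 5 from the highest of all 10699 genes, and that with YB328, 5.79, was at rank 41. Both rest on 3 rounded counts in the untreated library, which leaves the ratio of 179.5 with YB328 a 95% interval of 69.0 to 982. The direct ratio uses the counts of the bacterial libraries alone, with a scaling made over all 3 libraries. By this ratio Hspa1a was 7.56-fold lower with YB328 than with P. vulgatus (95% interval 7.09 to 8.07), at rank 9 from the lowest.

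Hspa1b (ENSMUSG00000090877.3, chromosome 17, 34956436 to 34959238, minus strand), its copy 9951 bases away, followed the same order with 4.43, 136 and 19.6 CPM in untreated, P. vulgatus and YB328 cells. It rose 30.7-fold (95% interval 24.1 to 39.3) with P. vulgatus and 4.43-fold (3.43 to 5.75) with YB328, and was 6.93-fold lower with YB328 than with P. vulgatus (6.32 to 7.60). The transcripts of the pair agree at 2181 of 2200 aligned bases (99.14%), and 47.1% of the 100-base windows of the Hspa1a transcript also occur in that of Hspa1b, so reads can be split between them by the counting. Of the rounded counts of the pair, 4.17% (exact 95% interval 0.868 to 11.7) lay on Hspa1a in untreated cells, 68.5% (67.7 to 69.4) with P. vulgatus and 66.6% (64.2 to 68.9) with YB328. The split was alike in the bacterial libraries and differed in the untreated one, where the pair had 72 counts. Summed, the pair stood at 4.65, 432 and 58.8 CPM. The sum was 93.0-fold higher with P. vulgatus than in untreated cells (73.8 to 119), 12.7-fold higher with YB328 (9.99 to 16.3), and 7.35-fold lower with YB328 than with P. vulgatus (6.97 to 7.75).

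The promoter windows of this pair, from 250 bases before to 50 after the annotated start (RefSeq, GRCm38.p6), are shown because they precede the members that differed most between the bacteria among those that reached 5 CPM; capitals mark a match to GAANNTTC, 2 facing heat shock units.
Hspa1a, chr17:34972107-34972406, minus strand: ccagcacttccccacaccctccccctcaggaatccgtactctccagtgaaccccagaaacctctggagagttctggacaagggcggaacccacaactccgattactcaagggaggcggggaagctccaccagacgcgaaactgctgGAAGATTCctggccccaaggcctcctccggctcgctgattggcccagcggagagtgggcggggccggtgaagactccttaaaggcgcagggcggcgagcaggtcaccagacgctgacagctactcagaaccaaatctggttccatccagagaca
Hspa1b, chr17:34959189-34959488, minus strand: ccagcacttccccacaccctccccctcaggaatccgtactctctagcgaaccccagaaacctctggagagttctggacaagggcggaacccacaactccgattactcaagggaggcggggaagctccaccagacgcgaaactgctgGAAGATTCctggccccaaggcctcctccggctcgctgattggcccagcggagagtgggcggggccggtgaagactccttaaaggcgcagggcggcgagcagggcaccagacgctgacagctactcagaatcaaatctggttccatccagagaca
The windows differ at 4 of 300 positions, with the substitutions C44T, T47C, T249G and C276T, counted from 1 at the 5′ end of the window and with the base of Hspa1a first. None of the 4 lies in the match, which starts 104 bases before the start in both.

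The constitutive HSP70 of the cytosol, Hspa8 (HSC70, chromosome 9, 40800984 to 40810087), was the most abundant member by TPM with YB328, and came next after Hsp90aa1 with P. vulgatus and after Hsp90ab1 in untreated cells. It stood at 328 TPM in untreated cells, 672 with P. vulgatus and 853 with YB328. In CPM it was at 860.0, 1425 and 1627, with log2 ratios to untreated cells of 0.73 and 0.92 that missed the rule, though they passed in TPM. The order of the bacterial libraries was thus the reverse of that for the inducible pair. The pair together reached 0.350% of the TPM of Hspa8 in untreated cells, 25.3% with P. vulgatus and 2.90% with YB328.

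**Figure D2:**
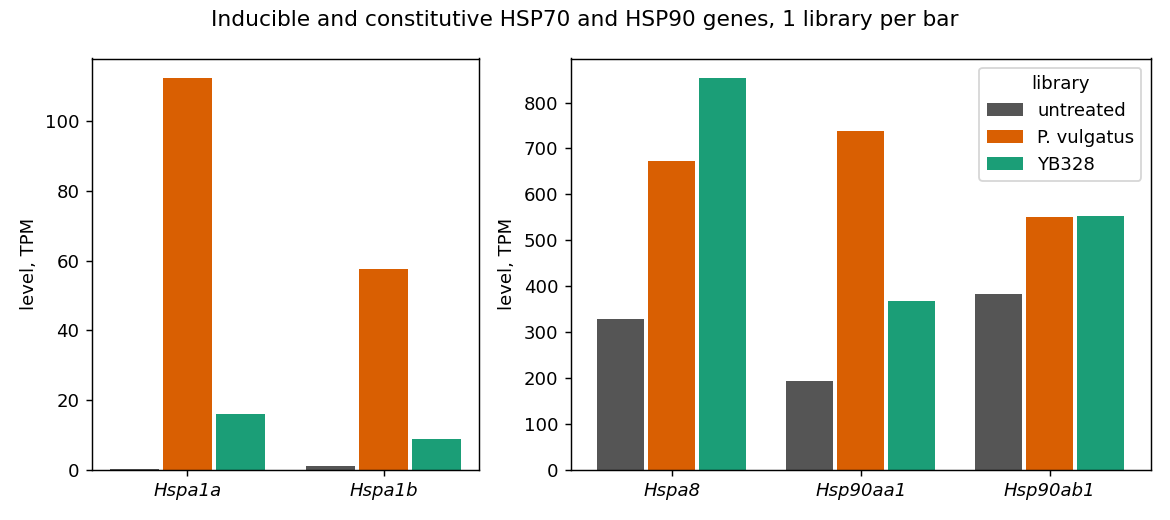
TPM of the inducible genes Hspa1a and Hspa1b (left) and of Hspa8, Hsp90aa1 and Hsp90ab1 (right), 1 library per bar, with a separate axis from 0 in each panel. Hspa1a and Hspa1b stand at 112 and 57.5 TPM with P. vulgatus and at 15.9 and 8.88 with YB328, and Hsp90aa1 at 737 and 367, while Hspa8 is highest with YB328.

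The other HSP70 members behaved in several ways. Hspa13 (chromosome 16, 75745431 to 75767104), an atypical HSP70 of the endoplasmic reticulum, rose from 7.36 CPM to 39.3 with P. vulgatus and 40.5 with YB328, 5.34-fold (95% interval 4.40 to 6.53) and 5.51-fold (4.54 to 6.74). The bacterial libraries did not differ beyond counting error in this gene (ratio of YB328 to P. vulgatus 1.03, 0.948 to 1.13). Hspa2, known for its role in spermatogenesis, was at 6.0 CPM in untreated cells, 14.96 with P. vulgatus and 7.16 with YB328. It rose 2.49-fold with P. vulgatus (1.98 to 3.16) and was 2.09-fold lower with YB328 than with P. vulgatus (1.76 to 2.49), a call lost in 6 of 11 alternatives. Hspa14, a ribosome-associated HSP70, had 18.6, 33.0 and 32.7 CPM, and Hspa9 (mortalin), the HSP70 of mitochondria, had 111, 129 and 129 CPM. Neither passed in a comparison.

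Among the HSP110 genes, whose products act as exchange factors of HSP70, Hsph1 and Hspa4l rose with both bacteria and Hspa4 with neither. Hsph1 (HSP105, chromosome 5, 149614287 to 149636376) went from 28.7 CPM to 118 with P. vulgatus and 94.6 with YB328, 4.10-fold (95% interval 3.72 to 4.55) and 3.30-fold (2.98 to 3.66). Hspa4l was at 14.4, 42.1 and 32.8 CPM, 2.92-fold (2.53 to 3.39) and 2.28-fold (1.97 to 2.65) higher than in untreated cells. Hspa4, the most abundant of the 3 in untreated cells with 22.2 TPM, stood at 81.1, 106 and 112 CPM. The level of Hsph1 in YB328 cells was 0.804 of that in P. vulgatus cells (0.763 to 0.847), a much smaller gap than for Hspa1a.

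The HSP90 genes of the cytosol parted. Hsp90aa1 (chromosome 12, 110690605 to 110702728), the inducible form, stood at 249.7 CPM in untreated cells, 787 with P. vulgatus and 379.6 with YB328. It rose 3.15-fold with P. vulgatus (95% interval 3.04 to 3.26). With YB328 its ratio to untreated cells was 1.52 (1.47 to 1.58), short of the rule, and it was 2.07-fold lower with YB328 than with P. vulgatus (2.02 to 2.12). Hsp90ab1, the constitutive form, stayed within a narrow range at 884, 1124 and 1044 CPM. Per length, Hsp90aa1 reached 0.506 of the TPM of Hsp90ab1 in untreated cells, 1.34 with P. vulgatus and 0.663 with YB328, so the inducible form exceeded the constitutive one in the P. vulgatus library only, of the 3 compared. Hspa8, Hsp90ab1 and Hsp90aa1 together made up 42.4%, 49.6% and 47.2% of the TPM of all members, which summed to 2137, 3945 and 3761 TPM.

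**Figure D3:**
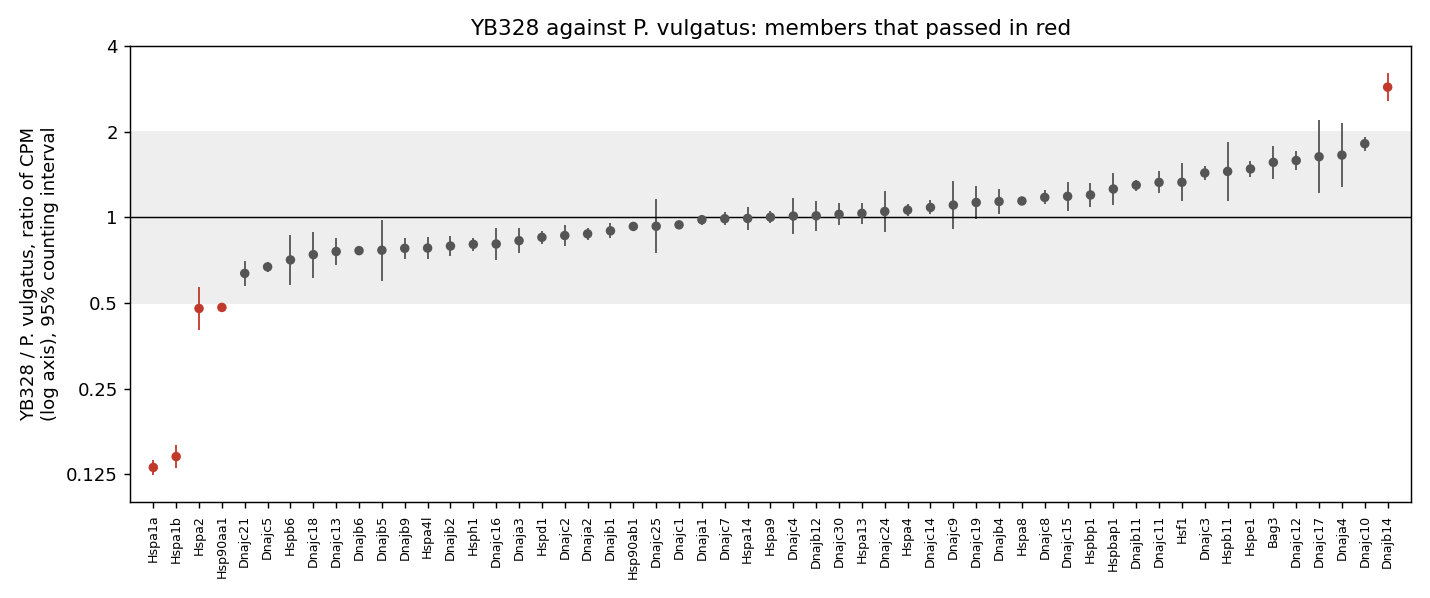
Ratio of CPM in the YB328 library to that in the P. vulgatus library for the 55 members that reached 5 CPM, on a log axis, ordered by ratio, with 95% intervals of counting error; red marks the members that passed and the grey band spans ratios of 0.5 to 2. Hspa1a and Hspa1b stand apart at the low end, 7.56-fold and 6.93-fold lower with YB328, and Dnajb14 is alone above the band.

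The chaperonin pair of the mitochondria passed in no comparison. Hspd1 (HSP60), whose product forms the folding chamber, was at 116 CPM in untreated cells, 104 with P. vulgatus and 88.8 with YB328. Hspe1 (HSP10, chromosome 1, 55088132 to 55091307), its lid, was at 119.7, 60.5 and 89.6 CPM. Hspe1 lay just outside the rule with P. vulgatus, at a log2 ratio of -0.98, and passed as lower when only nuclear protein-coding genes without Lars2 were used or the libraries were thinned. The TPM ratio of Hspe1 to Hspd1 was 4.20 in untreated cells, 2.26 with P. vulgatus and 3.99 with YB328. The genes lie head to head, with 112 bases in both gene spans, so reads there cannot be told apart without strand.

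The regulator Hsf1 and the exchange factor Bag3, itself an HSF1 target, did not follow Hspa1a. Hsf1 (chromosome 15, 76477422 to 76501913) had 21.6 CPM in untreated cells, 11.4 with P. vulgatus and 15.1 with YB328, log2 ratios of -0.90 and -0.50 that did not pass, though that with P. vulgatus did (-1.04) when only nuclear protein-coding genes without Lars2 were used. Bag3 (chromosome 7, 128523616 to 128546981), which directs HSP70 clients to autophagy, stood at 34.7, 14.2 and 22.1 CPM. It fell 2.45-fold with P. vulgatus (95% interval 2.14 to 2.80), a call lost in TPM and with the most abundant genes left out of the scaling, and was 1.57-fold lower with YB328 (1.39 to 1.77), short of the rule. Both genes were thus lowest in the library in which Hspa1a and Hsp90aa1 were highest. The amount or activity of the HSF1 protein was not measured.

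Dnaja1, Dnajb1, Dnajb4 and Dnajb5, DNAJ partners of HSP70 in the cytosol, rose in both bacterial libraries. Dnajb1 (HSP40, chromosome 8, 83608193 to 83612653), a main J protein of inducible HSP70, rose from 33.6 CPM to 82.7 with P. vulgatus and 74.2 with YB328, 2.46-fold (95% interval 2.24 to 2.72) and 2.21-fold (2.01 to 2.44). Its relatives Dnajb4 and Dnajb5 rose as well: Dnajb4 stood at 10.8, 29.2 and 33.1 CPM. Dnajb5 stood at 1.03, 5.79 and 4.44 CPM, resting on 16 counts in untreated cells. Dnaja1, with 77.0, 170.5 and 167 CPM, rose 2.22-fold (2.08 to 2.36) and 2.17-fold (2.04 to 2.32). Dnaja2, with 57.9, 123 and 108 CPM, passed with P. vulgatus alone (2.12-fold, 1.97 to 2.29), and its ratio with YB328 was 1.86 (1.72 to 2.005). None of these 5 passed between YB328 and P. vulgatus. On the scale of nuclear protein-coding genes without Lars2, Dnaja1 missed the rule in both comparisons with untreated cells, Dnaja2 with P. vulgatus and Dnajb1 with YB328.

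Dnaja4, another HSP70 partner of the cytosol, had 0 counts in untreated cells, 96.3 with P. vulgatus and 164 with YB328 (3.65 and 6.03 CPM). Against the floor of 3 counts this is at least 18.8-fold higher with P. vulgatus and at least 31.2-fold higher with YB328. However, 44.1% of the exonic bases of Dnaja4 are shared with Wdr61 on the other strand, and the library kit does not mark strand. Wdr61 had 607, 861 and 823 counts in untreated, P. vulgatus and YB328 cells, not scaled for depth. Dnajb2 (chromosome 1, 75236406 to 75245692), a J protein that binds ubiquitin, had the largest ratios to untreated cells among the DNAJ members that reached 5 CPM and had counts in all libraries: it rose from 7.74 to 51.8 CPM with P. vulgatus and 41.1 with YB328, 6.69-fold (95% interval 5.55 to 8.13) and 5.30-fold (4.39 to 6.46). Dnajb6, a suppressor of protein aggregation, stood at 133, 328 and 250.8 CPM. It passed with P. vulgatus (2.47-fold, 2.35 to 2.59) and not with YB328 (1.89, 1.79 to 1.98). A processed pseudogene, Dnajb6-ps, took 5.75%, 8.01% and 8.62% of the summed counts of the pair.

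**Figure D4:**
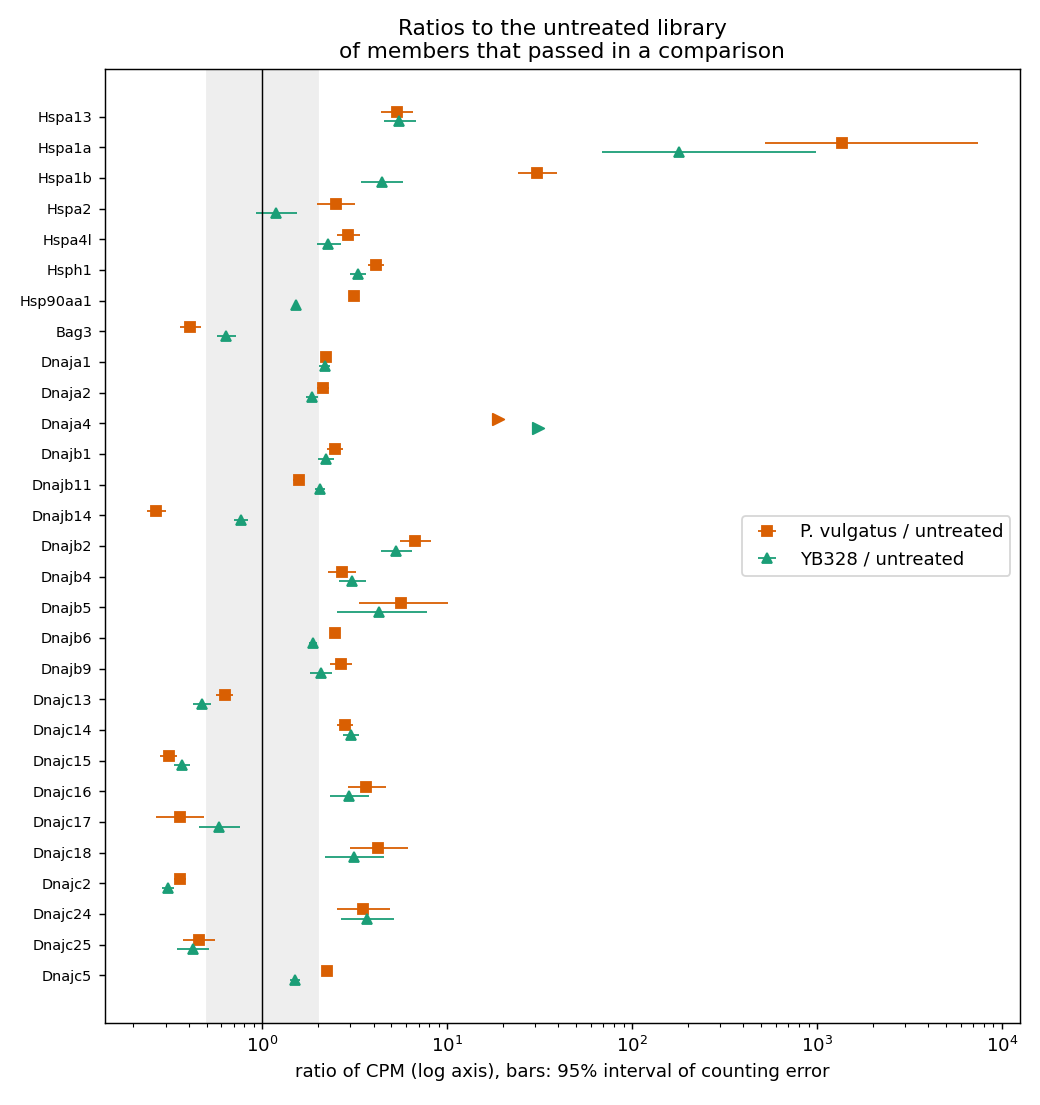
Ratios of CPM to the untreated library for the 29 members that passed in at least 1 comparison (orange squares P. vulgatus, green triangles YB328), on a log axis with 95% intervals of counting error; the grey band spans ratios of 0.5 to 2 and the triangles for Dnaja4 are lower bounds. Of the 29, 16 lie to the right of the band with both bacteria, and Hspa1a lies farthest, with Hspa1b at 30.7 with P. vulgatus.

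J proteins of the endoplasmic reticulum moved less evenly. Dnajb9 (ERdj4), which takes part in the removal of misfolded proteins, rose from 17.9 CPM to 47.7 with P. vulgatus and 37.1 with YB328, 2.67-fold (95% interval 2.34 to 3.05) and 2.08-fold (1.82 to 2.38), the second a call lost in 4 of 11 alternatives. Dnajb11 (ERdj3), a soluble partner of the HSP70 of that compartment, had 82.8, 130.2 and 169 CPM and passed with YB328 only (2.04-fold, 1.92 to 2.17), at a log2 ratio of 1.02 just inside the rule. Dnajc10 (ERdj5), a reductase of disulfide bonds, had 69.6, 71.1 and 129 CPM, and Dnajc3 (P58IPK) had 69.6, 81.2 and 116 CPM. Neither passed. A group of 6 members that lie in or face the lumen was made after values were seen (Dnajb9, Dnajb11, Dnajc1, Dnajc3, Dnajc10 and Hspa13). Of these, 3 rose with YB328 and 2 with P. vulgatus, beside 24.7% and 25.2% of all genes. All 6 log2 ratios were above 0 in both, as were the medians of all genes (0.17 and 0.15), except that Dnajc1 with YB328 and Dnajc10 with P. vulgatus went below 0 under another scaling.

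J proteins of the endoplasmic reticulum membrane differed from each other. Dnajb14, which works with Dnajb12 in the disposal of misfolded proteins, was at 56.9 CPM in untreated cells, 15.2 with P. vulgatus and 43.5 with YB328. It fell 3.75-fold with P. vulgatus (95% interval 3.32 to 4.22) and was 2.87-fold higher with YB328 than with P. vulgatus (2.56 to 3.22), calls that held in all 11 alternatives. This is the reverse of the order seen for Hspa1a. Dnajb12 had 10.8, 19.5 and 19.7 CPM and did not pass. Dnajc14, Dnajc16 and Dnajc18 rose with both bacteria. Dnajc14 had 31.4, 87.5 and 94.7 CPM, with 17% of its exonic bases shared with Ormdl2 on the other strand. Ormdl2 also had more counts with the bacteria (257, 849 and 948, not scaled for depth). Dnajc16 had 5.42, 19.8 and 15.96 CPM and Dnajc18 had 2.39, 10.1 and 7.45 CPM.

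The members that fell were J proteins of the DNAJC class, apart from Bag3 and Dnajb14. Dnajc2 (MPP11, chromosome 5, 21757267 to 21785251), which works with Hspa14 at the ribosome, went from 122 CPM to 43.7 with P. vulgatus and 37.7 with YB328, 2.79-fold (95% interval 2.59 to 3.01) and 3.23-fold (2.99 to 3.49) lower. Its partner Hspa14 did not fall, with the values given above. Dnajc15 (MCJ, chromosome 14, 77820681 to 77875125), an inner mitochondrial membrane protein known to restrain respiratory complex I, stood at 62.7, 19.5 and 23.2 CPM, 3.21-fold (2.88 to 3.58) and 2.71-fold (2.45 to 3.0) lower. Dnajc25 had 14.6, 6.63 and 6.16 CPM and fell in both, calls lost in 4 of 11 alternatives with P. vulgatus and 3 with YB328, the deposited TPM among them. Dnajc13 (RME-8), which acts on endosomes, fell with YB328 (44.5 to 21.1 CPM, with 27.9 in the P. vulgatus library), and Dnajc17, a splicing cochaperone, fell with P. vulgatus (8.0 to 2.88 CPM, with 4.70 in the YB328 library). After values were seen, 8 members were placed in mitochondria (Hspa9, Hspd1, Hspe1, Dnaja3, Dnajc11, Dnajc15, Dnajc19 and Dnajc30). Of these none rose and Dnajc15 alone fell, in each comparison with untreated cells. The rule called 25.2% of all genes higher and 18.8% lower with P. vulgatus, and 24.7% and 18.3% with YB328. With only 8 members, these counts cannot be set apart from those shares. With the 10 most abundant genes of each library left out of the scaling, the calls of Dnajc25, of Dnajc13, of Dnajc17 and of Dnajc15 with YB328 were lost, and in TPM that of Dnajc2 with P. vulgatus.

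Further DNAJC members that passed were Dnajc24 and Dnajc5. Dnajc24, needed for the diphthamide modification of an elongation factor, rose from 2.90 CPM to 10.2 with P. vulgatus and 10.7 with YB328. Dnajc5 (cysteine string protein), which guards exocytosis at synapses and other secretory sites, had 99.8, 225 and 150.4 CPM and passed with P. vulgatus (2.25-fold, 95% interval 2.13 to 2.38). By class, 6 of 9 DNAJB members at 5 CPM rose with each bacterium, 3 of 4 DNAJA members with P. vulgatus and 2 with YB328, and of 22 DNAJC members 5 rose and 4 fell with P. vulgatus and 4 rose and 4 fell with YB328. The same rule called 25.2% of all genes higher and 18.8% lower with P. vulgatus, and 24.7% and 18.3% with YB328, so the DNAJC shares (22.7% and 18.2% with P. vulgatus, 18.2% and 18.2% with YB328) lay near those of all genes.

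Of the 55 members, 26 passed in no comparison, 14 of them DNAJ genes, at 4.51 to 1627 CPM. They include the exchange factor Hspbp1 (33.4, 27.7 and 33.2 CPM), Hspbap1 (15.3, 15.5 and 19.5 CPM) and Hspb11 (5.29, 4.51 and 6.53 CPM), which is named like a small heat shock protein and works in ciliary transport. Dnajc11, of the mitochondrial membrane, shows how the unit matters: it had 31.9, 33.1 and 43.8 CPM but 24.3, 11.5 and 17.6 TPM. Nearest the rule on the higher side were Dnajb11 inside (log2 ratio 1.02) and Dnajc12 outside (0.95) with YB328, Dnaja2 inside (1.08) and Dnajb12 outside (0.83) with P. vulgatus, and Dnajb14 inside (1.49) and Dnajc10 outside (0.85) for YB328 against P. vulgatus. On the lower side they were Dnajc13 inside (-1.06) and Dnajc17 outside (-0.71), Dnajc25 inside (-1.08) and Hspe1 outside (-0.98), and Hspa2 inside (-1.01) and Dnajc21 outside (-0.64), in the same order of comparisons.

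The small heat shock proteins, which hold unfolded proteins without ATP, were low or at 0. Of 7, only Hspb6 reached 5 CPM, with 8.33, 9.01 and 6.39 CPM. Hspb1 (HSP25 in mouse) had 13.8, 46.8 and 91.0 estimated counts, at most 3.34 CPM. Also below 5 CPM were Hspb2, Hspb3, Hspb7, Hspb8 and Hspb9, the HSP70 genes Hspa1l, Hspa12a and Hspa12b, and the DNAJ genes Dnajb3, Dnajb7, Dnajb8, Dnajb13, Dnajc5b, Dnajc5g, Dnajc6, Dnajc22, Dnajc27 and Dnajc28. The highest of the 20 was Dnajb3 with 3.79 CPM, and Dnajb8, Dnajc5b, Dnajc5g and Hspa12b had 0 counts in all libraries. Hspa1l, 546 bases from Hspa1a, had 1.81, 0 and 15.6 counts, with 71.9% of its exonic bases shared with an antisense gene.

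Promoter windows of RefSeq were at hand for 59 of the 75 members (76 windows) and were searched on both strands for heat shock element letters. The 3-unit motif GAANNTTCNNGAA, or TTCNNGAANNTTC on the other strand, was found in 198 of all 32851 windows (0.603%), that is for 0.662% of genes with a window. It was found for 4 of the 59 members (6.78%), Hspd1, Hspe1, Hsph1 and Dnajb6. The shorter GAANNTTC or TTCNNGAA, which the longer one contains, was found for 17% of all genes with a window and for 17 of the 59 members (28.8%), or in 15.1% of all windows and 25% of the members' windows. Hspd1 and Hspe1 share 285 bases of their windows and so the same match. Of the 4 members with the longer motif, Hsph1 rose with both bacteria, Dnajb6 with P. vulgatus, and Hspd1 and Hspe1 with neither. Hspa1a, Hspa1b, Dnaja1, Dnaja4 and Dnajb4, which rose, and Bag3, which fell with P. vulgatus, held the shorter one only. So did Dnajc10 and Hspb6, which passed in no comparison, and Dnajc27, Dnajc5g, Hspb1, Hspb3 and Hspb8, which were below 5 CPM. Dnajb1, which had windows, is not among the 17. A match is a description of letters and no proof of a binding site, and no match says only that these letters are not in the window.

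The windows of 3 of these members are shown, with the matches to the longer motif in capitals, to set the members with the most complete heat shock letters beside the values above.
Hspe1, chr1:55087898-55088197, plus strand: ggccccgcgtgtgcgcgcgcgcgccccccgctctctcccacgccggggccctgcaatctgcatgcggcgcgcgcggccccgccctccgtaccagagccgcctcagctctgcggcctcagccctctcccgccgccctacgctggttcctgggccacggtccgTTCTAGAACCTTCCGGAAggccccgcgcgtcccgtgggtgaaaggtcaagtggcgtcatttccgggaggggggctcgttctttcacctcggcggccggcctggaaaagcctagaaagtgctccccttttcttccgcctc
Hsph1, chr5:149636266-149636565, minus strand: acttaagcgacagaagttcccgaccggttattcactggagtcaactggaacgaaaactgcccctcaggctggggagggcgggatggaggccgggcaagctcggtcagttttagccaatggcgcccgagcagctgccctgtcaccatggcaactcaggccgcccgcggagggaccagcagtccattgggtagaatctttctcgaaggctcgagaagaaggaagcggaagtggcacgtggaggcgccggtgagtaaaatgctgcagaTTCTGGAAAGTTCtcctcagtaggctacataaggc
Dnajb6, chr5:29735648-29735947, plus strand: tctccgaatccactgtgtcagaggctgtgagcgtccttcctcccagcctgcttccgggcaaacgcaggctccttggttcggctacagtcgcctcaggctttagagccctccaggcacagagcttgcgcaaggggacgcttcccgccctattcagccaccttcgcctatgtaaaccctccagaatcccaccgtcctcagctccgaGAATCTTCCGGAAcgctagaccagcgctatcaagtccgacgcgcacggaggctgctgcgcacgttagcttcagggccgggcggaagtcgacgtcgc
In Hspe1, 2 overlapping matches ran from 89 to 72 bases before the start. In Dnajb6 the match began 46 bases before the start, and in Hsph1 it began 15 bases after it. Hsph1 and Dnajb6 each had a second annotated start nearby, whose window held the same match.

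**Figure D5:**
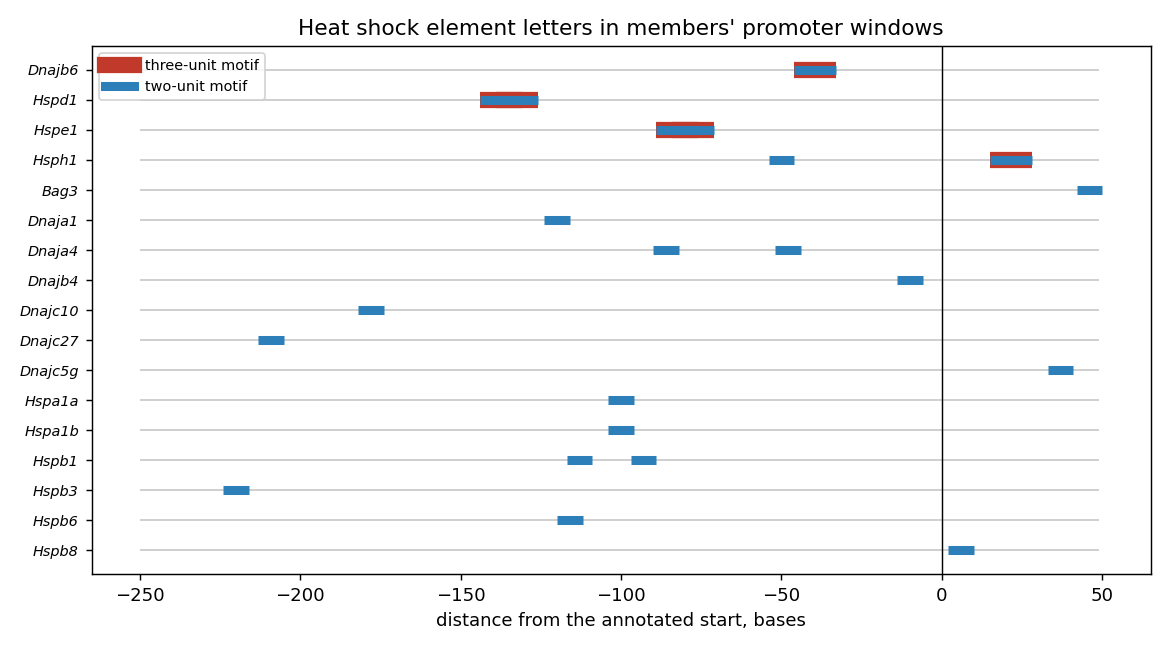
Places of heat shock element letters in the promoter windows of the 17 members that hold them, as distance from the annotated start in bases (red 3-unit motif, blue 2-unit motif, grey line the window searched; 1 window per member). The 3-unit motif is found in 4 members, and Hspa1a and Hspa1b show 1 short match each at the same distance, 104 bases before the start.

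Genes of the same pathway that the naming rule leaves out were counted in 6 lists. Of 13 other genes known to rise after heat shock and at 5 CPM, 9 rose and 1 fell with each bacterium, where 25.2% of all genes rose with P. vulgatus and 24.7% with YB328. Hmox1, heme oxygenase, went from 50.2 CPM to 2459 with P. vulgatus and 1456 with YB328, Sqstm1, an autophagy receptor, from 212 to 2105 and 1627, and Atf3, a stress transcription factor, from 84.4 to 754.5 and 836. Tnfaip3, a brake on NF-kB that many inflammatory stimuli also raise, went from 61.0 to 519 and 313. Serpinh1, the collagen chaperone HSP47, fell from 5.55 to 0.114 and 2.06 CPM. Of 6 stromal markers at 5 CPM, 4 fell and Lum rose in the same libraries, and a link to Serpinh1 was not tested. The median log2 ratio of this list was 1.57 with P. vulgatus, against 0.15 for all genes, and 1.26 with YB328, against 0.17. Like the other lists, it was chosen with earlier results of these data known.

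The counts of the 5 lists of cofactors can be read against the same shares of all genes, with 18.8% lower with P. vulgatus and 18.3% with YB328. Of 19 HSP90 cochaperones, 3 rose and 2 fell with each bacterium: Stip1 (HOP), which hands clients from HSP70 to HSP90, rose from 24.0 CPM to 137 and 145, Unc45a from 14.6 to 44.8 and 44.1 and Ttc4 from 9.04 to 23.9 and 29.2, while Ppid and Cdc37l1 fell. The median log2 ratio of these 19 was 0.14 with P. vulgatus and -0.12 with YB328. Of 15 HSP70 exchange factors and cochaperones outside the rule, 4 rose and 1 fell with P. vulgatus, and 3 rose and 1 fell with YB328. Bag2 had 1.35, 10.8 and 8.62 CPM, Hyou1, an HSP110 relative of the endoplasmic reticulum, 6.97, 39.5 and 39.6 CPM, and Grpel1, the mitochondrial exchange factor, 32.7, 69.9 and 73.7 CPM. The median of the 15 was 0.48 with P. vulgatus and 0.53 with YB328. Of 13 subunits of the cytosolic chaperonin and prefoldin 1 rose, Cct3, and 1 fell, Pfdn2, in each (medians -0.14 and -0.23). Of 8 genes for HSP90 proteins of the endoplasmic reticulum and mitochondria and for mitochondrial proteases, Clpb alone rose, with P. vulgatus (medians 0.62 and -0.0068). Of 4 other heat shock factors and regulators at 5 CPM, Hsf2 alone fell, from 46.5 CPM to 19.2 and 18.8 (medians -0.54 and -0.46). Between YB328 and P. vulgatus, Serpinh1 and 1 of the 15 HSP70 cofactors passed, both higher with YB328, beside 3.4% of all genes.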

How the data were processed

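RNA sequencing of wild-type BMDCs was deposited as 1 table with 3 libraries. Per the labels' protocols, the kits were RNeasy Micro for RNA, SMART-Seq v4 for cDNA and Nextera XT for libraries; such libraries do not mark strand. Per the submitters' processing notes, DRAGEN and GRCm38 were used; the sources used here name no counting tool and no annotation release. Per the file headers, the authors deposited for each library a TPM and a count, here treated as estimated counts (expected counts), since 8.86% to 9.99% of genes had values that are not whole.

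Counts were scaled by trimmed mean of M values (TMM) over all genes by edgeR 4.0.16 (R 4.3.3), which served for scaling alone. Python 3.11.15 did the rest, using pandas 2.3.3, scipy 1.17.1, numpy 2.4.6, Biopython 1.88 and matplotlib 3.10.9. Intervals of ratios are exact 95% Clopper-Pearson intervals of rounded counts, conditional on their sum. Ratios are of CPM without the added 0.5, and log2 ratios include it. The method was tested on simulated counts with counting error alone, and thus without variation between cultures. It called 44% to 48% of 2-fold changes, 100% of 4-fold changes and 0 of 9509 unchanged genes in each comparison. The members and lists were chosen with earlier results of these data known. By value the text names every member at 5 CPM outside the DNAJ genes and every DNAJ member that passed. Of the listed genes that passed, it gives values for some, up to 4 per list and comparison, and names or only counts the others. Further genes named beside them were chosen after their values were seen. Of the 75 members, 72 had the same identifier and coordinates in GENCODE M21, used for exon overlaps. The values of 2 genes are not reported here.

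Alternatives were scaling by total counts, by DESeq2 1.42.0 or by TMM with the 10 top genes of every library left out, only nuclear protein-coding genes without Lars2, deposited TPM, a minimum of 0 or 20 CPM, adding 0.1 or 2 CPM, libraries thinned to 1 depth (seed 1), and Hspa1a and Hspa1b summed.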

Additional observations from a re-analysis of the deposited data

How the results depend on the processing

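The members passed the rule 53 times over the 3 comparisons. Of these calls 28 held in all 11 alternatives and 0 reversed. For Hspa1a, Hspa1b, Hsp90aa1 and Dnajb14, the calls between YB328 and P. vulgatus held in each alternative that gives the gene a value. With the 10 most abundant genes of each library left out of the scaling, 29 members were higher and 1 lower with YB328. In P. vulgatus cells 3 were lower. Of all genes 38.2% were then higher and 10.9% lower with YB328, and 11.6% lower with P. vulgatus. Of the 6 lists, whose sizes are given above, 28 genes were higher and 1 lower with each bacterium. With P. vulgatus 37.1% of all genes were then higher. Between the bacteria 1 listed gene was higher with YB328, beside 3.55% of all genes. In the reported analysis 16 listed genes were higher with YB328, 18 with P. vulgatus, 6 lower with each, and 2 higher between the bacteria. Of all genes 24.7% were higher and 18.3% lower with YB328, and 25.2% and 18.8% with P. vulgatus. With YB328 3.4% of all genes were higher than with P. vulgatus. In TPM all genes had a median log2 ratio of 0.61 with YB328 and 0.49 with P. vulgatus. There 26 members and 26 listed genes were higher with YB328, beside 36.7% of all genes. In TPM 1 listed gene was lower with each bacterium, beside 12.3% of all genes with YB328 and 14.2% with P. vulgatus. Also in TPM, 2 members and 1 listed gene were higher with YB328 than with P. vulgatus, beside 3.69% of all genes. With no minimum 4 members were higher with YB328 than with P. vulgatus, beside 1.41% of all genes. With a minimum of 20 CPM, or 2 CPM added, 0 listed genes were, beside 2.10% and 2.15% of all genes. With nuclear protein-coding genes only, and after thinning, 10 listed genes were lower with P. vulgatus, beside 20.2% and 19.9% of all genes. Thinning gave 1 listed gene lower with YB328 than with P. vulgatus, beside 3.19% of all genes. The causes were not tested. No paired analysis was possible because each group has 1 library, and for the same reason no replicate could be left out. Depth limits the ratios of Hspa1a, Dnaja4 and Dnajb5 to untreated cells, where they had at most 16 counts.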
